A study of Mus musculus with 178 samples.

Results

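The data described here followed the blood of 30 mice whose tumors did not respond to anti-PD-1, from Day 9 to Day 17 after tumor cell injection. They were 60 of the 178 bulk RNA-seq libraries of the series, 30 of Day 9 and 30 of Day 17, chosen by the response and the day in the sample labels and paired by ear tag, so that every mouse was compared with itself. All mice were C57BL/6J animals of both sexes, aged 6 to 8 weeks, that carried 4MOSC1 cells, a line from a carcinogen-induced oral squamous cell carcinoma, in the tongue or the buccal mucosa. All of them received the antibody RMP1-14 against PD-1, so no untreated group was measured at these days. Retro-orbital blood went straight into TRIzol, so that red cells were not removed, and libraries of its polyadenylated RNA were prepared with a SMARTer kit. The labels have no class for stable disease, and such mice are among the non-responders. The Day 17 library of non-responder 24 carries the label of a responder, whereas the Day 4, Day 9 and Day 24 libraries of the same ear tag carry that of a non-responder. It was kept, and the counts without this mouse are given beside the first result. The mice carried ear tags of 3 digits (non-responders 1 to 23) or of 4 digits (non-responders 24 to 30), and the labels do not say what the difference in tags means.

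PD-1 is an inhibitory receptor of activated T cells, and antibodies that block it release T cells from this brake. Blood taken while a tumor grows carries its own account of the host: classical monocytes and neutrophils are released from the bone marrow on inflammatory signals, platelets are shed by megakaryocytes, basophils and eosinophils are rare granulocytes of type 2 responses, and B cells that have switched class secrete IgG. In bulk blood, fewer cells of a type and less RNA per cell cannot be told apart, and every value is a share of a library in which haemoglobin mRNA takes the most counts.

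Libraries held between 31837362 and 71013189 counts, with a median of 45498448 on Day 9 and 54080303 on Day 17. Haemoglobin genes took 78.2% ± 3.69 of the counts on Day 9 and 81.6% ± 2.46 on Day 17 (SD, n = 30 each), and the share was higher on Day 17 in 24 of 30 mice. The paired difference was 3.34 ± 3.95 percentage points (two-sided permutation test with sign flips, p = 1e-05, the smallest that 100000 flips can give). Within the 23 mice of 3-digit tags the difference was 4.15 ± 4.07 points, higher in 20 of 23 mice, and within the 7 mice of 4-digit tags it was 0.701 ± 2.00 points, higher in 4 of 7 mice (exact permutation test, p = 0.39). Outside haemoglobin, between 5383208 and 14763138 counts were left per library. A list of 7 gene models, made after seeing the data, took in ribosomal and other structural RNAs such as Rn7s1 and Rn7sk. It also held Lars2, which is annotated as protein-coding. The list took 0.788 to 2.80% of the counts outside haemoglobin on Day 9, with a median of 1.27%. On Day 17 it took 1.06 to 8.48%, with a median of 2.41%. That share was higher on Day 17 in 27 of 30 mice, and its part in the results below was not tested.

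Of 12432 genes tested, 4592 (36.9%) differed between the days at an adjusted p of at most 0.05, of which 2398 (19.3%) rose and 2194 (17.6%) fell. Large changes were mostly falls: with a change of at least 1.5-fold, 377 genes fell (3.03%) and 40 rose (0.322%). The median log2 change over all genes was 0.02 on this scale, which centres the libraries on most genes (TMM). On the deposited TPM, where haemoglobin is part of the whole, the median gene lay at -0.24, and 29 genes rose and 7279 fell. With TPM rescaled outside haemoglobin the median was -0.10, with 288 rises and 3192 falls. Small rises given below are therefore relative to this centring, and for lists described as rising whose median turned negative on TPM the median relative to all genes is given as well. In a fit of all 4 days of the non-responders 1382 genes rose and 2150 fell, so that rises were fewer there, and the lists this touches are named below. In the mice of 3-digit tags alone 34.4% of genes were called (16.1% rose and 18.3% fell), and in the 7 mice of 4-digit tags 7.38% (4.71% rose and 2.67% fell). The change itself differed between the tag series in 633 genes (5.09%). Without non-responder 24, 4395 genes were called (2101 rose and 2294 fell).

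**Figure D1:**
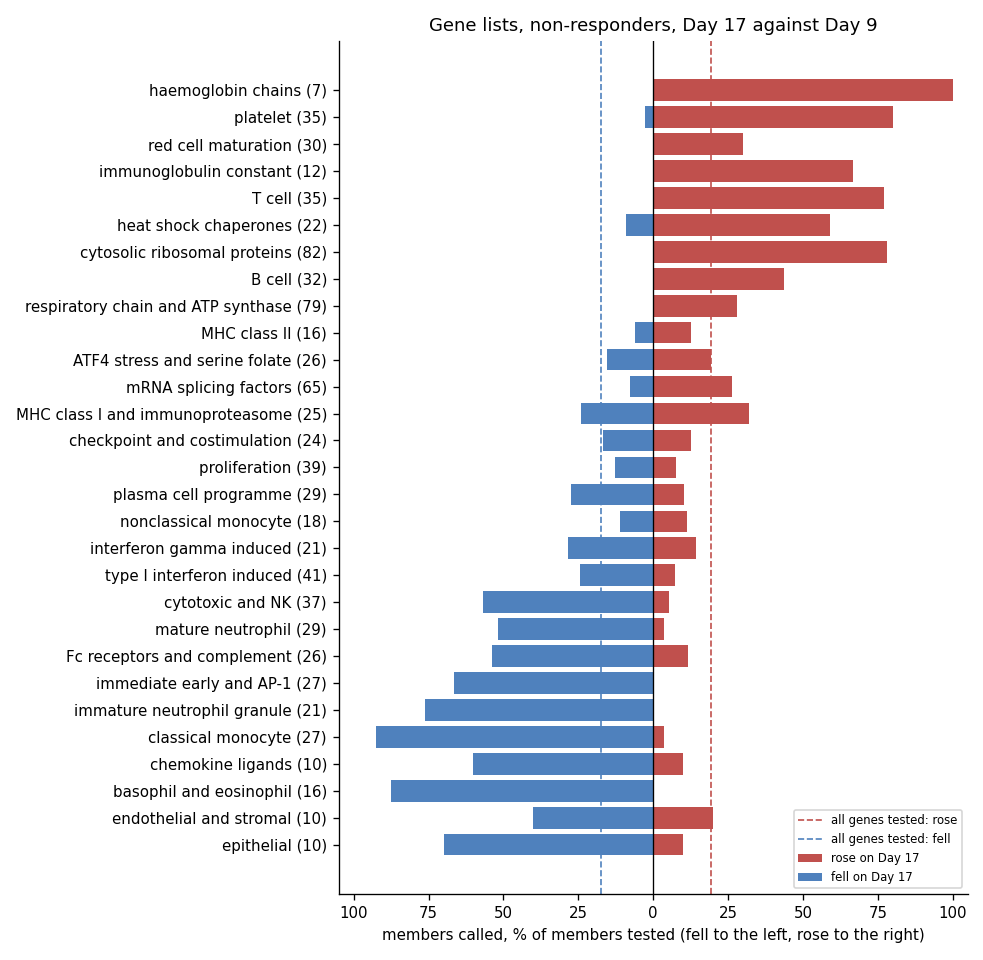
Share of the tested members of each gene list that rose (bars to the right) or fell (bars to the left) from Day 9 to Day 17 in 30 non-responders, in percent of members tested, with the shares over all genes (19.3% and 17.6%) as dashed lines. Classical monocyte genes stand at the falling end with 25 of 27, and haemoglobin chains (7 of 7), platelet (28 of 35), ribosomal protein (64 of 82) and T cell genes (27 of 35) had high shares of rises.

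Genes of classical monocytes fell together. Of 27 members tested, 25 fell and 1 rose, with a median log2 change of -0.49. The summed level of the list was 1104 to 2112 CPM on Day 9, with a median of 1417 CPM, and 818 to 1388 CPM on Day 17, with a median of 1053 CPM, lower in 28 of 30 mice. Ccr2, the chemokine receptor by which these monocytes leave the marrow (chr9:124101950-124113557, plus strand, mm10), stood at 32.4, 60.9 and 109 CPM on Day 9 (lowest, median and highest mouse) and at 20.0, 31.0 and 45.5 CPM on Day 17. All 30 mice were lower on Day 17, although the ranges of the days overlapped. The log2 change was -0.99 ± 0.10 (SE, adjusted p = 2.4e-08), and it was called in the mice of 3-digit tags (-0.88 ± 0.10) and in those of 4-digit tags (-1.37 ± 0.18) taken alone. Fn1, which encodes fibronectin and marks monocytes in mouse blood, went from 57.0, 86.8 and 165 CPM to 19.5, 44.4 and 62.2 CPM and was lower in 29 of 30 mice, by -1.16 ± 0.11 (adjusted p = 3.0e-08). Chil3, a secreted chitinase-like protein of Ly6C-high monocytes, went from 19.6, 41.1 and 107 CPM to 7.26, 20.7 and 36.1 CPM, by -1.17 ± 0.13. The ranges of the days overlapped for Fn1 and Chil3 at the low end of Day 9. Smaller falls were measured for Ly6c2, the surface protein that defines these cells (-0.46 ± 0.11), F13a1, a coagulation factor subunit (-0.49 ± 0.09), Lyz2, lysozyme (-0.56 ± 0.08), and Ctss, a lysosomal protease (-0.29 ± 0.05). The 1 member that rose was Ly6c1, a relative of Ly6c2 that T cells and endothelium express as well, at 0.370, 1.02 and 1.52 CPM on Day 9 and 0.834, 1.22 and 1.80 CPM on Day 17. Its sequence is close to that of Ly6c2, so that reads may be split between the copies. On TPM the list fell with a median of -0.76, which is 0.52 below all genes.

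Several genes with the smallest p-values among the large falls are no members of that list. Tnfrsf21, the death receptor DR6, fell from 4.76, 7.37 and 11.9 CPM to 2.73, 4.47 and 5.91 CPM, by -0.72 ± 0.07 (adjusted p = 2.4e-08), in 29 of 30 mice. Fnip2, a partner of folliculin in nutrient sensing, fell by -0.77 ± 0.07, Rin2, a Rab5 regulator, by -0.79 ± 0.08, Plxnd1, a semaphorin receptor, by -0.64 ± 0.07, and B4galt6, which makes lactosylceramide, by -0.80 ± 0.08. Fnip2, Rin2 and Plxnd1 were lower in 29 of 30 mice each and B4galt6 in 28.

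Among chemokine ligands and Fc and complement receptors, most of them products of myeloid cells, falls outnumbered rises. Of 10 chemokine genes tested 6 fell and 1 rose (median log2 change -0.62). Among the 4-digit mice 1 of 9 fell and 1 rose (median 0.20), and the summed level of the list was higher in 6 of these 7 mice, and over all mice lower in 16 and higher in 14. Of 26 Fc and complement genes 14 fell and 3 rose (median -0.33), with 16 falls of 23 in the 3-digit mice and 4 falls and 3 rises of 27 in the 4-digit mice (median -0.13), and 6 of 26 were called as different between the series. Ccl9, a monocyte chemoattractant, fell from 8.89, 13.4 and 23.8 CPM to 4.46, 7.40 and 11.2 CPM (-0.87 ± 0.10, lower in 29 of 30 mice). Ccl6, a related chemokine, fell by -0.57 ± 0.08 in 27 of 30 mice. Fcgr1, the high-affinity IgG receptor of monocytes, went from 2.22, 3.47 and 8.51 CPM to 0.946, 1.96 and 3.82 CPM, and C3ar1, the receptor for complement C3a, from 0.481, 1.02 and 5.29 CPM to 0.152, 0.379 and 1.14 CPM. Fcgr1 was lower in 28 mice and C3ar1 in 27. For C3ar1 the fall was -1.61 in the 3-digit mice (23 of 23 lower), the 4-digit mice stood at -0.30 with no call, and the difference was called (1.31, adjusted p = 0.016). Cr1l, the rodent complement regulator Crry, rose instead (0.16 ± 0.02, higher in 27 of 30 mice), as did Cd55, another complement regulator (0.13 ± 0.04), which stood at -0.06 in the 4-digit mice.

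Genes of nonclassical monocytes, the patrolling subset that matures from classical ones, did not move as a list: of 18 tested, 2 rose and 2 fell, with a median of -0.05. Cx3cr1, the fractalkine receptor that both subsets carry, fell from 7.49, 14.4 and 22.6 CPM to 5.84, 9.75 and 18.1 CPM (-0.52 ± 0.08, 27 of 30 mice). Cd300ld, an activating receptor of myeloid cells, fell by -0.25 ± 0.08. Fabp4, a fatty acid binding protein, rose by 0.55 ± 0.13, and Klf2, a transcription factor of quiescent cells, by 0.11 ± 0.05, the latter in 17 of 30 mice, a call that was lost when any 1 of 18 mice was left out.

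Basophil and eosinophil genes had the lowest median among the lists of blood cells. Of 24 list genes 16 could be tested, of which 14 fell and 0 rose, with a median of -0.93. In the mice of 3-digit tags 13 of 15 fell (median -0.88) and in those of 4-digit tags 7 of 17 (median -0.38), and 4 of 16 were called as different between the series. Alox15, the 12/15-lipoxygenase of eosinophils, went from 2.43, 3.66 and 6.16 CPM to 0.296, 1.51 and 6.02 CPM and was lower in 28 of 30 mice (-1.17 ± 0.15, adjusted p = 9.7e-07), with -1.38 in the 3-digit mice and -0.43, not called, in the 4-digit mice. Cyp11a1, the cytochrome P450 that starts steroid synthesis and that mouse basophils express (chr9:58006411-58027023, plus strand), went from 0.290, 1.00 and 3.51 CPM to 0.0246, 0.229 and 1.25 CPM, by -1.87 ± 0.23 (adjusted p = 6.5e-07), in 28 mice. The days overlapped for both genes, and for Cyp11a1 all 7 mice of 4-digit tags were lower. Mcpt8, the basophil protease, stood at 0.136, 0.492 and 2.77 CPM on Day 9 and at 0, 0.136 and 0.779 CPM on Day 17 (-1.69 ± 0.30), so that its Day 17 values rest on few reads. Its fall was larger in the 4-digit mice (-3.30) than in the 3-digit mice (-1.19, adjusted p of the difference = 0.046). Siglecf, the defining surface lectin of eosinophils, split by tags: in 23 of 23 mice of 3-digit tags it was lower, with medians of 1.82 and 0.961 CPM, whereas 4 of 7 mice of 4-digit tags were higher, with medians of 1.5 and 1.34 CPM. The difference of the change between the tag series was 1.15 (log2, adjusted p = 0.00081). Epx, the peroxidase of eosinophil granules, had a median of 0 counts on both days.

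T cell genes rose by small amounts in most mice. Of 35 tested, 27 rose and 0 fell, with a median of 0.18. The medians were 0.11 in the mice of 3-digit tags (14 rose) and 0.35 in those of 4-digit tags (15 rose). On TPM the direction turned, with 0 rises, 3 falls and a median of -0.10, which is 0.14 above all genes. Outside haemoglobin 2 rose and 0 fell (median 0.01, or 0.12 above all genes). The summed level of the list was 357, 446 and 511 CPM on Day 9 and 402, 500 and 603 CPM on Day 17, higher in 26 of 30 mice. Il7r, the IL-7 receptor chain of naive and memory T cells (chr15:9505788-9530176, minus strand), rose from 16.2, 23.8 and 30.5 CPM to 23.2, 30.4 and 40.5 CPM, by 0.42 ± 0.05 (adjusted p = 7.4e-07), in 29 of 30 mice. Lat, the adaptor that links the T cell receptor to its signal, rose from 9.71, 11.6 and 14.5 CPM to 11.2, 14.4 and 21.5 CPM (0.34 ± 0.05), also in 29 of 30 mice. The days overlapped for both genes, and the rise is seen within mice rather than between the ranges. Lineage genes rose less: Cd3e, a chain of the T cell receptor complex, by 0.18 ± 0.05, Cd4, the coreceptor of helper cells, by 0.21 ± 0.05, and Cd8a, that of cytotoxic cells, by 0.20 ± 0.05. Each of these 3 genes lay below 0 on TPM (-0.10, -0.03 and -0.04). Cd4 differed between the tag series, with 0.11 ± 0.05 in 3-digit mice and 0.53 ± 0.10 in 4-digit mice, and so did Lat, with 0.25 ± 0.03 and 0.62 ± 0.10.

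Genes of cytotoxic T cells and NK cells fell, unlike those of T cells at large. Of 37 tested, 21 fell and 2 rose, with a median of -0.20. In the 3-digit tags 20 of 37 fell (median -0.25). In the 4-digit tags 0 of 36 fell and 1 rose (median -0.01), where 2.67% of all genes were called as falls, and none of the members was called in the test of the difference between series. Ncr1 and Zeb2, described next, stood at -0.25 and -0.20 in the 4-digit tags. Ncr1, the NK cell receptor NKp46, went from 3.12, 5.15 and 7.63 CPM to 2.66, 4.32 and 5.43 CPM, lower in 24 of 30 mice (-0.35 ± 0.07). Prf1, perforin, fell by -0.23 ± 0.07 in 22 mice, and Klrg1, a receptor of terminally differentiated effector cells, by -0.28 ± 0.10 in 22 (not called without non-responder 15 or 22). Zeb2, a factor of effector cells that monocytes also express, fell by -0.33 ± 0.05 in 28. The transcription factors Tbx21 (-0.28 ± 0.09) and Eomes (-0.20 ± 0.07), which drive effector and NK programmes, fell as well. In the 4-digit tags Prf1, Tbx21 and Eomes stood at 0.06, 0.16 and 0.14 with no call. Gzmb, granzyme B, at 2.77, 4.11 and 5.49 CPM and then 2.29, 3.78 and 7.38 CPM, was not called, and neither was Nkg7, a granule membrane protein (-0.01 ± 0.06). The 2 that rose were the chemokine receptors Cxcr3 (0.19 ± 0.06) and Cxcr6 (0.20 ± 0.08), which guide T cells to inflamed tissue, and both lay below 0 on TPM (-0.10 and -0.05). The call for Cxcr6 was lost without any 1 of 10 mice.

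Checkpoint and costimulatory genes gave 3 rises and 4 falls of 24 tested, shares no higher than those over all genes. Pdcd1, which encodes PD-1 itself, was near the limit of detection, at 0.0252, 0.151 and 0.310 CPM on Day 9 and 0.0919, 0.218 and 0.736 CPM on Day 17. It was higher in 23 of 30 mice (0.63 ± 0.15, adjusted p = 1.1e-03). Cd200, an inhibitory ligand, rose by 0.33 ± 0.07, with -0.09 in the 4-digit mice. Vsir, the checkpoint VISTA of myeloid cells, fell from 32.0, 42.0 and 57.9 CPM to 25.3, 33.0 and 53.0 CPM (-0.33 ± 0.05). Cd274, the PD-1 ligand PD-L1, had opposite calls in the tag series: it was lower in 22 of 23 mice of 3-digit tags (-0.66, adjusted p = 4.3e-07) and higher in 7 of 7 of 4-digit tags (0.28, adjusted p = 0.03).

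**Figure D2:**
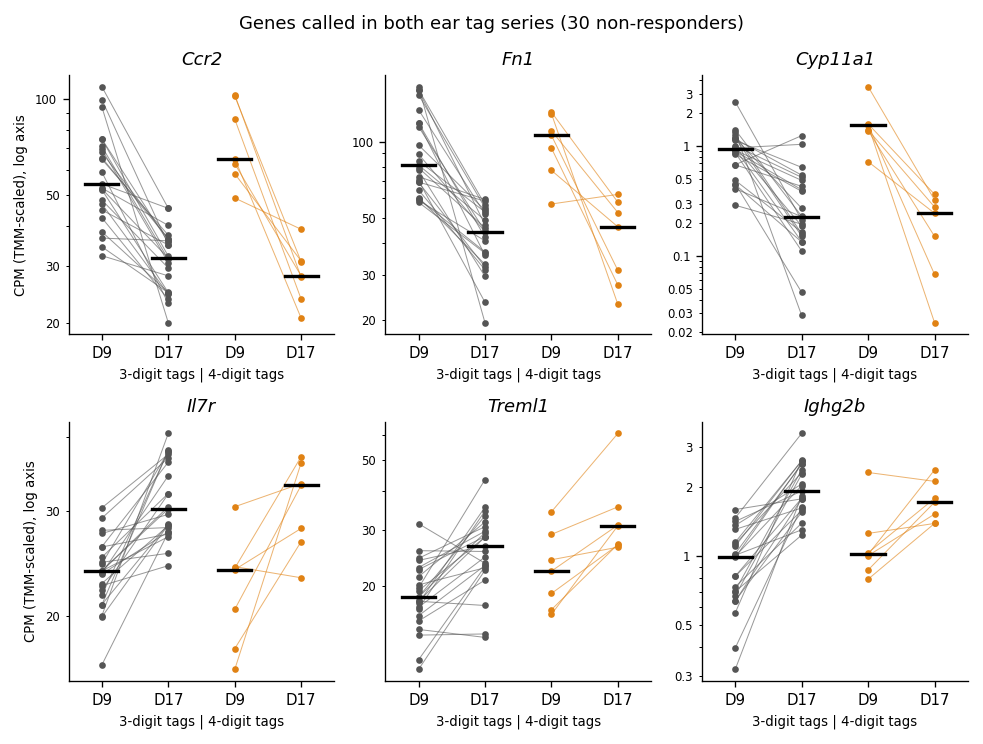
Levels of Ccr2, Fn1, Cyp11a1, Il7r, Treml1 and Ighg2b on Day 9 and Day 17 in CPM on a log axis, each line 1 of 30 non-responders, colored by ear tag series, with black bars at the medians. Ccr2 fell in all 30 mice and Il7r and Ighg2b rose in 29, with both tag series moving the same way in each panel.

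Platelet genes rose. Of 35 tested, 28 rose and 1 fell, with a median of 0.33, and the list rose in the mice of 3-digit tags (18 of 35, median 0.25) and of 4-digit tags (25 of 35, median 0.50). On TPM 0 rose and 5 fell, with a median of -0.06, which is 0.18 above all genes, and outside haemoglobin 16 rose and 2 fell (median 0.19). In the fit of all 4 days 15 rose. Treml1, a receptor of platelet alpha granules (chr17:48359916-48367176, plus strand), went from 10.9, 18.7 and 34.3 CPM to 13.8, 27.8 and 60.5 CPM and was higher in 26 of 30 mice (0.49 ± 0.07, adjusted p = 2.4e-06). Gp9, a subunit of the von Willebrand factor receptor, went from 23.1, 40.4 and 65.6 CPM to 28.5, 54.9 and 110 CPM, higher in 25 (0.44 ± 0.07). For both genes the highest values were those of Day 17, and the ranges of the days overlapped. Vwf, von Willebrand factor, rose by 0.37 ± 0.10 and Pf4, the chemokine of platelet granules, by 0.25 ± 0.07, the latter at -0.14 on TPM. Ppbp, another granule chemokine and one of the most abundant platelet transcripts, was not called (93.1, 157 and 281 CPM against 91.0, 169 and 446 CPM). Lhfp and Mras, a membrane protein of unclear role and a small GTPase, were among the rises of at least 1.5-fold with the smallest p-values, by 0.59 ± 0.09 and 0.60 ± 0.09, each in 27 of 30 mice. Slc5a3, an inositol transporter, rose by 0.61 ± 0.09 in 29 mice, and Rec114, a gene of meiotic recombination, by 0.60 ± 0.11 in 24. The largest rises also took in Syt5, a synaptotagmin (0.91 ± 0.17), and Agtr1a, an angiotensin receptor (0.89 ± 0.18), at Day 17 medians of 0.343 and 0.337 CPM.

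Class-switched immunoglobulin rose more than any other lymphocyte transcript named here. Ighg1, the constant region of IgG1, stood at 0.191, 0.555 and 1.15 CPM on Day 9 and at 0.652, 1.25 and 3.34 CPM on Day 17, higher in 28 of 30 mice (1.25 ± 0.13, adjusted p = 7.0e-08). Ighg2b, that of IgG2b (chr12:113302965-113307933, minus strand), stood at 0.320, 1.00 and 2.32 CPM and then 1.24, 1.81 and 3.44 CPM, higher in 29 mice (1.04 ± 0.10, adjusted p = 3.6e-08). For both genes all 30 Day 17 values lay above the Day 9 median. Ighg2c, at 0, 0.138 and 0.681 CPM and then 0, 0.257 and 1.15 CPM, was higher in 23 mice (1.23 ± 0.31), of which 3 were among the 7 of 4-digit tags. Of 12 constant region genes tested 8 rose and 0 fell, with a median of 0.19 (-0.09 on TPM, which is 0.15 above all genes, and 0.05 outside haemoglobin), and in the 4-digit mice 2 of 11 rose (median 0.0023), with 2 members called as lower there by the test of the difference. Jchain, which joins IgA and IgM polymers, rose over all mice (0.60, adjusted p = 0.0013), with 0.80 in the 3-digit tags (21 of 23 mice) and -0.12 in the 4-digit tags, and the difference between the series was not called (adjusted p = 0.064). The other genes of antibody-secreting cells did not rise as a list. Of 29 tested, 8 fell and 3 rose, where 17.6% of all genes fell and 19.3% rose. In the 3-digit mice 10 of 29 fell and 2 rose. In the 4-digit mice 0 of 28 fell and 1 rose, where 2.67% of all genes fell. Among the falls were Prdm1, the regulator Blimp-1 that T and myeloid cells also use (-0.80 ± 0.11), and Xbp1, a factor of secretory cells (-0.33 ± 0.05). Prdm1 stood at -0.97 in the 3-digit mice and at -0.22, not called, in the 4-digit mice. For Xbp1 these values were -0.34 and -0.35, the latter not called. Sec11c, a signal peptidase subunit, rose (0.21 ± 0.03). Cd28, the costimulatory receptor of T cells and a member of that list too, rose from 7.39, 10.0 and 11.8 CPM to 9.94, 11.8 and 15.0 CPM in 29 of 30 mice (0.26 ± 0.04).

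B cell genes rose in the 3-digit mice, and 10 of 32 had a lower change in the 4-digit mice by the test of the difference. Over all mice 14 of 32 rose and 0 fell, with a median of 0.08. In the 3-digit mice 22 rose (median 0.13), and in the 4-digit mice 0 rose and 3 fell (median -0.05). On TPM 0 rose and 16 fell (median -0.26, or -0.03 relative to all genes), outside haemoglobin 0 rose and 3 fell (median -0.04), and in the fit of all 4 days 9 rose. Ms4a1, the surface antigen CD20, went from 66.9, 80.2 and 98.1 CPM to 68.7, 88.8 and 110 CPM (0.16 ± 0.04, higher in 25 of 30 mice, but -0.26 on TPM). Cd37, a tetraspanin of B cells, rose by 0.14 ± 0.03, and Cd79a, a chain of the B cell receptor, was not called (0.08 ± 0.04). Bank1, a B cell scaffold, showed the split: 0.13 in the 3-digit mice (adjusted p = 0.00594) and -0.25 in the 4-digit mice (adjusted p = 0.039), with a difference of -0.38 between them. MHC class II genes, which B cells and myeloid cells use to present antigen, had 9 rises and 1 fall of 16 in the 3-digit mice and 0 rises and 2 falls in the 4-digit mice. Over all mice H2-Ob (0.16 ± 0.04) and H2-DMb2 (0.13 ± 0.04), which tune peptide loading, were the 2 that rose. In the test of the difference 9 of the 16 were called, all lower in the 4-digit mice.

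Genes of mature neutrophils also depended on the tag series. Over all mice 15 of 29 genes of mature neutrophils fell and 1 rose (median -0.29), and 16 of 21 genes of immature granules fell and 0 rose (median -0.46). In the 3-digit mice 22 of 29 mature genes fell (median -0.38). In the 4-digit mice 0 of 28 were called in either direction (median 0.12), and 7 members differed between series. Of the immature granule genes 16 fell in the 3-digit mice (median -0.50), and in the 4-digit mice 3 fell and 1 rose of 20 (median -0.20), with 5 called as different between series. The latter falls included Lyz2 and Chil3, which are given above with the monocytes (-0.72 and -1.10 in the 4-digit mice). Non-responder 29 weighed on the count: without it 24 mature genes fell. Among the markers with the highest levels, S100a8, a calcium-binding alarmin, at 29.0, 52.7 and 93.4 CPM and then 22.9, 40.6 and 196 CPM, was not called (-0.25 ± 0.14) with all mice and fell without non-responder 29 (-0.33). Ly6g, the defining surface protein, was not called either, at medians of 0.552 and 0.433 CPM. Asprv1, an aspartic protease of neutrophils and skin (chr6:86628164-86629710, plus strand), was lower in 23 of 23 mice of 3-digit tags, with medians of 25.3 and 4.82 CPM (-2.25 ± 0.18), and higher in 5 of 7 of 4-digit tags, with medians of 8.01 and 10.9 CPM. BC100530, a stefin, followed the same pattern, with medians of 2.22 and 0.140 CPM in the first series and 0.270 and 0.788 CPM in the second. Cxcr4, the receptor that holds cells in the marrow, was the 1 member that rose (0.22 ± 0.07, with -0.09 in the 4-digit mice and -0.29 on TPM).

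Lactoferrin, of the immature granule list, showed a wide gap of this kind. Ltf (chr9:111019271-111042767, plus strand), which encodes the iron-binding protein of secondary granules and of saliva and other glandular secretions, was lower in 23 of 23 mice of 3-digit tags, with medians of 24.3 and 0.897 CPM (-4.35 ± 0.29, adjusted p = 3.4e-11). In the 4-digit mice it was higher in 6 of 7, with medians of 1.59 and 2.61 CPM (0.95 ± 0.23, adjusted p = 0.03). Lcn2, lipocalin 2, stood at -0.37 and -0.08 in the 3-digit and 4-digit mice and Ngp, neutrophilic granule protein, at -0.29 and -0.16, none of them called, and neither gene was called with all mice. Without non-responder 29 both fell, by -0.40 and -0.33.

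**Figure D3:**
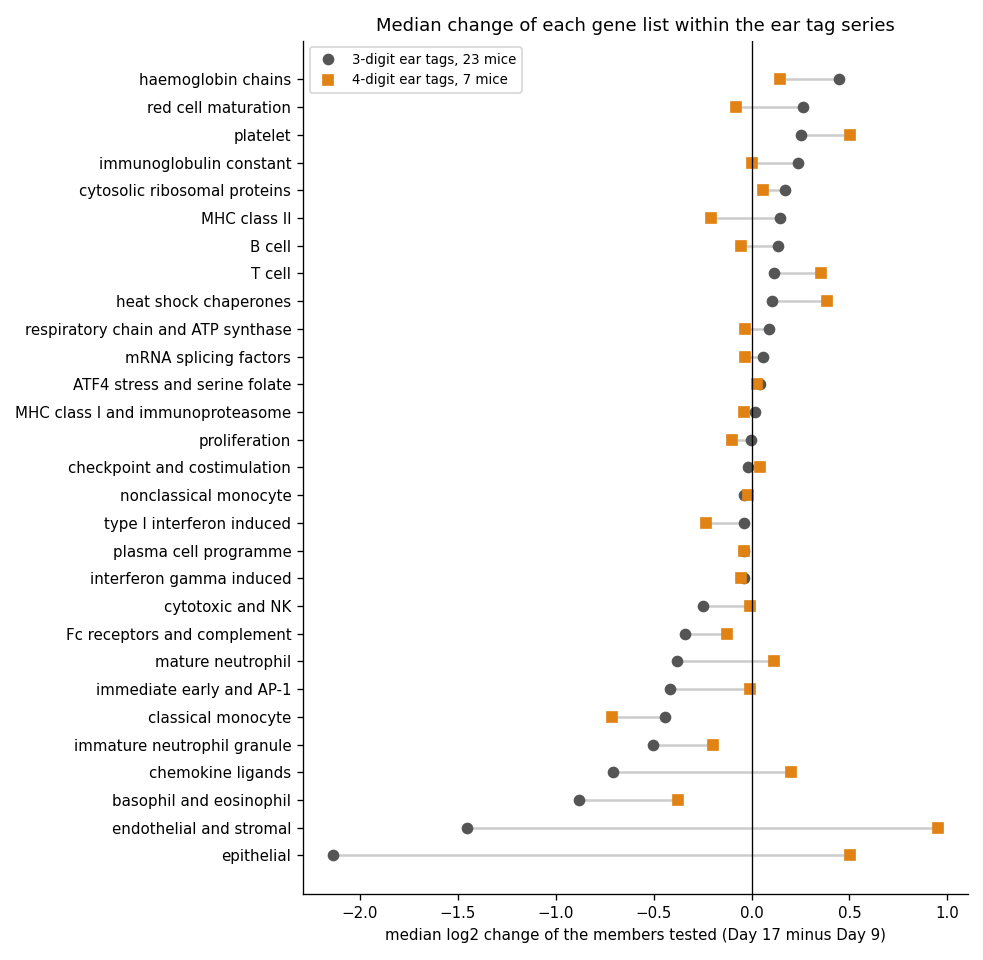
Median log2 change from Day 9 to Day 17 of each gene list (horizontal axis, members tested) in the 23 mice of 3-digit ear tags (circles) and the 7 mice of 4-digit ear tags (squares), joined by a line for each list. Classical monocyte genes lie below 0 in both series (-0.44 and -0.71). Epithelial genes lie at -2.14 in the 3-digit mice (10 genes) and 0.50 in the 4-digit mice (8 genes), over members that passed the filter. The sum over all 30 epithelial genes had medians of 45.9 CPM on Day 9 and 35.2 CPM on Day 17 in the 3-digit mice. In the 4-digit mice these medians were 36.0 and 37.7 CPM.

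Epithelial and tissue transcripts split in the same manner. Of 30 epithelial genes 10 passed the filter and were tested, with 7 falls and 1 rise over all mice (median -1.79). The median was -2.14 in the 3-digit mice (10 tested) and 0.50 in the 4-digit mice (8 tested). Genes can pass the filter through the libraries where they are high, and Krt13 and Krt19 were highest on Day 9 in the 3-digit mice. These medians therefore do not measure the whole list, for which the summed level is given below. On Day 17, 11 of the 30 had a median of 0 counts, against 5 on Day 9. The summed level of the 30 genes was 31.5, 45.9 and 256 CPM on Day 9 and 27.5, 35.2 and 52.7 CPM on Day 17 in the 3-digit mice, lower in 20 of 23. In the 4-digit mice it was 32.3, 36.0 and 38.4 CPM and then 32.9, 37.7 and 49.1 CPM, higher in 4 of 7. The high Day 9 values of the 3-digit mice have no counterpart in the other series. Krt13, a keratin of the oral lining, was lower in 21 of 23 mice of 3-digit tags (medians of 5.96 and 0.271 CPM) and higher in 7 of 7 of 4-digit tags (medians of 0.907 and 2.32 CPM). Slc6a14, an amino acid transporter of secretory epithelium, Tmprss11g, a protease of squamous epithelium, and Clca3b, a secreted chloride channel regulator, had fits of -4.72, -4.77 and -5.89 in the 3-digit mice and of 1.43, 1.72 and 1.05 in the 4-digit mice, where Clca3b was not called. Krt19, a keratin of simple epithelium, stood at -4.68 and 0.90. The day of a bleed cannot be told apart here from the handling on that day. The 4 highest sums on Day 9 were those of non-responders 8, 21, 12 and 23, at 256, 163, 133 and 128 CPM. Without these 4 mice, chosen after seeing the data, 6 of 10 epithelial genes fell with a median of -1.47. The counts for classical monocytes (23 of 27 fell), platelets (25 of 35 rose) and T cells (25 of 35 rose) stayed near those above. Fewer were called for cytotoxic and NK genes (14 of 37 fell) and ribosomal proteins (49 of 82 rose). The same held for the respiratory chain (11 of 79 rose) and red cell maturation (4 of 30 rose).

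Ly6d, which B cells express as well, was the epithelial list member that rose (0.19 ± 0.05). Its medians of 22.5 and 26.4 CPM in the 3-digit mice make up much of the summed level of the list. Ces2f, a carboxylesterase, was among the largest falls over all mice (-3.02 ± 0.47), at medians of 0.769 and 0.0520 CPM. Of the 10 epithelial genes tested 4 were called as different between the series. Cdh1 fell in both. It encodes E-cadherin, which some blood cells also express, and fell from 0.529, 1.70 and 3.77 CPM to 0.0572, 0.522 and 1.66 CPM in 29 of 30 mice, with -1.39 in the 3-digit and -2.20 in the 4-digit mice. Epcam, the epithelial adhesion molecule, was not called (-0.48 ± 0.23).

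Among transcripts of macrophages and connective tissue some gaps were wider still. Spp1, osteopontin (chr5:104435118-104441050, plus strand), stood at 0.112, 2.34 and 101 CPM on Day 9 and at 0, 0.102 and 0.172 CPM on Day 17 in the 3-digit mice, lower in 23 of 23. In the 4-digit mice it stood at 0.0929, 0.159 and 0.360 CPM and then 0.6, 2.16 and 21.6 CPM, higher in 7 of 7, and the days did not overlap. The difference of the change between series was 10.59 (log2). Gpnmb, a glycoprotein of lipid-laden macrophages, stood at -2.97 and 4.64 in the series. Of 18 endothelial and stromal genes 10 were tested, of which 4 fell and 2 rose over all mice. The median of the members that passed the filter was -1.45 in the 3-digit and 0.95 in the 4-digit mice. Members can pass through the libraries where they are high, so these medians do not measure the whole list. The summed level of the 18 genes had medians of 100 and 102 CPM in the 3-digit mice, lower in 12 of 23. In the 4-digit mice these medians were 110 and 143 CPM, with 6 of 7 mice higher on Day 17. Acta2, smooth muscle actin, fell (-1.17 ± 0.27, with 0.42 in the 4-digit mice), and Pecam1, which platelets share with endothelium, rose (0.24 ± 0.05). The matrix genes Col1a1 (-3.17 and 1.80, the latter not called) and Postn (-3.86 and 3.38), and H19, an imprinted noncoding RNA (-4.01 and 3.39), moved apart too. Col5a2, another collagen, rose by 2.93 in the 4-digit mice and was too low to test in the 3-digit mice alone. Without the 4 mice of the highest epithelial sums on Day 9, Spp1, H19, Postn and Col5a2 were not called over all mice (-1.81, -1.48, -1.21 and -1.01). Of the 633 genes whose change differed between the series, 436 (3.51% of those tested) had a higher and 197 (1.58%) a lower change in the 4-digit mice. Among 11976 genes tested in both series, 2180 fell in the 3-digit mice, of which 233 also fell in the 4-digit mice (10.7% of the former and 73.7% of the falls of the latter) and 81 rose there. Of 1969 rises in the 3-digit mice 272 were also rises in the 4-digit mice (13.8% of the former and 49.5% of the latter), and 5 were falls there.

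**Figure D4:**
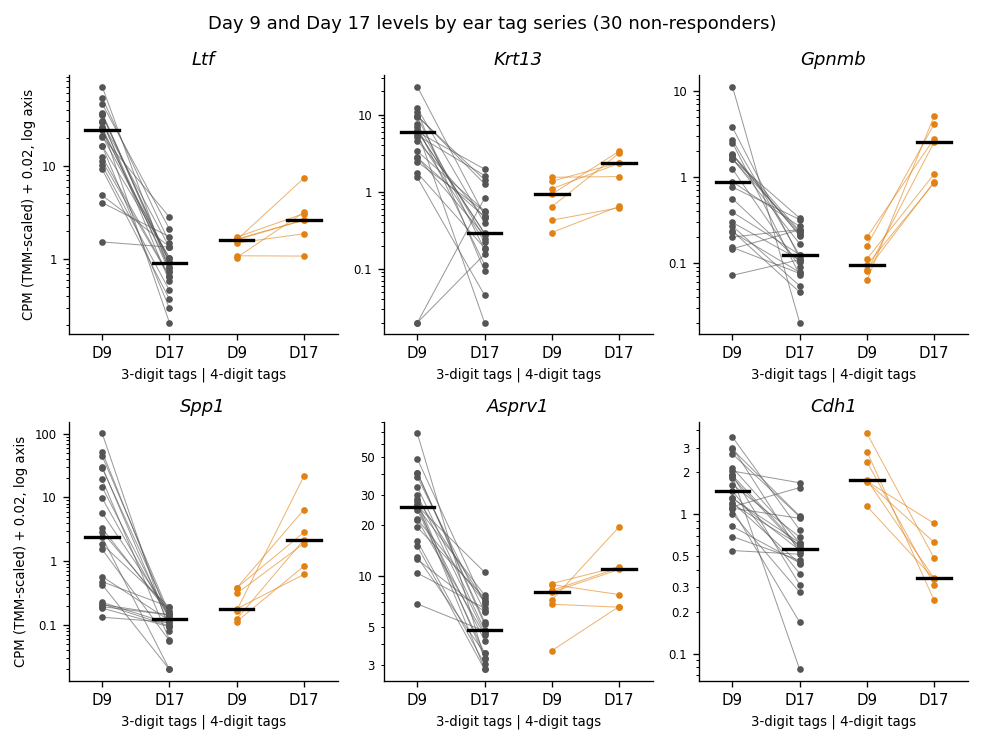
Levels of Ltf, Krt13, Gpnmb, Spp1, Asprv1 and Cdh1 on Day 9 and Day 17 (CPM + 0.02, log axis), each line 1 of 30 non-responders, colored by ear tag series, with black bars at the medians. All 23 mice of 3-digit tags were lower on Day 17 for Ltf, Spp1 and Asprv1, some by little, while most of the 7 mice of 4-digit tags were higher, and Cdh1 fell in 29 of 30 mice.

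Immediate early genes, which are switched on within minutes of a stimulus, fell. Of 27 tested, 18 fell and 0 rose, with a median of -0.35. In the 4-digit mice 2 of 26 fell (median -0.01), and 8 members were called as different between series. Fos, a subunit of AP-1, went from 2.53, 7.05 and 13.6 CPM to 1.37, 3.57 and 9.41 CPM and was lower in 27 of 30 mice (-0.90 ± 0.13). Egr3, a zinc finger factor, went from 2.08, 3.58 and 5.04 CPM to 1.97, 2.58 and 3.97 CPM and was lower in 29 (-0.43 ± 0.05). Both fell in either series. Egr1, its relative, fell over all mice (-0.78 ± 0.18), with -1.03 in the 3-digit mice and 0.03 in the 4-digit mice, and the difference between series was not called (adjusted p = 0.12).

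Interferon-induced genes changed little as groups over all mice. Of 41 genes of the type I response 10 fell and 3 rose (median -0.08, and 6 falls without non-responder 5, 9 or 30). Of 21 induced by interferon gamma 6 fell and 3 rose. In the 4-digit mice 6 of 41 type I genes fell and 1 rose (median -0.23), where 2.67% of all genes fell. By the test of the difference 2 type I genes were called as higher and 3 as lower in the 4-digit mice. Of the interferon gamma genes 3 of 21 rose and 1 fell in the 4-digit mice, where 4.71% of all genes rose. Ifi204 and Ifi205, nucleic acid sensors of monocytes and related in sequence, fell by -0.52 ± 0.11 and -0.72 ± 0.16. Ifit2, an inhibitor of viral translation, rose by 0.19 ± 0.06 in 24 of 30 mice, and Isg20, an exonuclease, by 0.46 ± 0.11. Irf1, a transcription factor of the interferon gamma response, fell from 20.5, 25.3 and 31.0 CPM to 16.3, 21.2 and 23.8 CPM in 27 of 30 mice (-0.30 ± 0.04), whereas the GTPases Igtp (0.23 ± 0.04, 27 mice) and Gbp8 (0.27 ± 0.06, 26 mice) rose. Ifit2, Igtp and Gbp8 lay below 0 on TPM.

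Haemoglobin chains rose, and most genes of red cell maturation were not called. All 7 haemoglobin chains tested rose (median 0.43), whereas on TPM 2 rose and 1 fell (median 0.06), and 9 of 30 genes of red cell maturation rose and 0 fell (median 0.19, but -0.13 on TPM, where 0 rose and 15 fell, 0.11 above all genes). Of the latter 2 rose and 1 fell in the 4-digit mice (median -0.08). In the fit of all 4 days 2 chains and 1 maturation gene rose. Without 1 of non-responders 12, 13, 14, 15, 17, 19, 20, 25, 28 or 29, 4 or 5 of the maturation genes rose. Hbb-bt, an adult beta chain, rose by 0.47 ± 0.12 in 22 of 30 mice, Hbq1b, a theta chain, by 0.48 ± 0.11 in 23, and Tal1, a factor of the erythroid and megakaryocytic lineages, from 3.60, 5.89 and 10.2 CPM to 4.18, 8.03 and 24.6 CPM (0.39 ± 0.08). The chains are near copies of each other, and reads may be divided among them. In the 4-digit mice 0 of 7 chains were called. Tal1 rose in both series, by 0.24 and 0.85. Nfe2, a factor shared by red cell precursors and megakaryocytes, rose by 0.22 ± 0.05.

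Genes of the translation machinery moved by little, and their direction depended on the scale. Of 82 cytosolic ribosomal protein genes 64 rose and 0 fell (median 0.15), in the 3-digit mice 62 and in the 4-digit mice 0, and in the fit of all 4 days 9 rose. Rpl10a, of the large subunit, rose by 0.20 ± 0.03 in 29 of 30 mice, and Rps7, of the small one, by 0.19 ± 0.04 in 26. On TPM 0 rose and 42 fell, with a median of -0.24, the same as all genes, and outside haemoglobin 0 rose and 6 fell (median -0.02). Of 79 genes of the respiratory chain 22 rose and 0 fell (median 0.08, but on TPM 0 rose and 58 fell with a median of -0.29, or -0.05 relative to all genes, with 2 rises in the fit of all 4 days and 12 to 14 rises without 1 of non-responders 3, 11, 19, 20, 21, 26 or 28), Ndufa1 of complex I (0.40 ± 0.08) and Cox6c of complex IV (0.33 ± 0.08) among them. Splicing factors showed 17 rises and 5 falls (3 falls without non-responder 1 or 10, and 10 rises and 2 falls in the fit of all 4 days) of 65, with 0 rises and 40 falls on TPM (median -0.28, or -0.04 relative to all genes). Srsf2 (0.20 ± 0.03) and Srsf6 (0.20 ± 0.03), which bind exonic enhancers, were higher in 29 and 27 of 30 mice, and the core spliceosome genes Sf3b2 (-0.06 ± 0.02) and Snrnp200 (-0.07 ± 0.02) lower in 25 and 22. Rpl10a, Rps7, Ndufa1, Cox6c, Srsf2 and Srsf6 all lay below 0 on TPM. Lars2 rose by 1.30 ± 0.17, from 42.0, 66.0 and 194 CPM to 56.1, 157 and 1168 CPM, in 28 of 30 mice. Rn7sk, a small nuclear RNA that restrains elongation, rose by 1.13 ± 0.17. Both belong to the list of structural RNA models whose share of counts is given above. How much of the Lars2 value is its own mRNA was not tested.

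Cell cycle genes were flat, with 3 rises and 5 falls of 39 tested. E2f8, a repressor that ends the cycle's transcription, fell by -0.70 ± 0.16 and Cenpe, a kinetochore motor, by -0.41 ± 0.10, while Pcna, the replication clamp, rose by 0.12 ± 0.03 and Mcm7, of the replicative helicase, by 0.11 ± 0.03. The genes of amino acid stress gave 5 rises and 4 falls of 26. Atf4, its transcription factor, rose by 0.23 ± 0.04 in 26 of 30 mice and Ddit4, an inhibitor of mTOR, by 0.45 ± 0.11 in 21, and Wars, a tRNA synthetase that interferon gamma also induces, fell by -0.12 ± 0.04. Chac1, a target of Atf4 that degrades glutathione, had opposite calls, with -2.37 in the 3-digit and 0.81 in the 4-digit mice. MHC class I genes gave 8 rises (5 without non-responder 3) and 6 falls of 25, with H2-Q7 up in 27 of 30 mice (0.28 ± 0.04, but -0.03 on TPM), a nonclassical gene whose sequence is close to that of its neighbor H2-Q6 (0.19 ± 0.04), and Canx, calnexin, down in 27 (-0.14 ± 0.03).

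The changes were then compared with those of the responders, mice of the same model and treatment, of which 14 had both days. Of 13185 genes tested, 44 (0.334%) had a change that differed between the response groups, 23 of them higher and 21 lower in non-responders, and 1859 had an unadjusted p under 0.05. Neither the falls of monocyte genes nor the rises of T cell and platelet genes were among them. Over all genes of the responders 953 of 11785 were called (8.09%), with 395 rises (3.35%) and 558 falls (4.73%). In responders 12 of 26 classical monocyte genes fell (median -0.44) and 17 of 35 T cell genes rose (median 0.19). Of 35 platelet genes 6 rose and 1 fell in responders (median 0.27), against 28 rises and 1 fall in non-responders. Ccr2 changed by -1.04 ± 0.17 in responders, against -0.99 ± 0.10 in non-responders. Of the non-responders 23 of 30 carried 3-digit tags, and of the 14 responders 4, so that response and tag series partly coincided. With the tag series by day as a further term 2 genes were called, without the pairing of days by mouse 2 were, and without the mouse whose Day 17 label differs 89 were. None of the genes named below from this comparison was called with the tag series term: the difference was 0.33 for Wwp2 (adjusted p = 0.06), 1.19 for Apol10a (adjusted p = 0.18) and -0.24 for Hsp90b1 (adjusted p = 0.25), where the fit without the term gave 0.34, 1.47 and -0.44.

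Among the genes whose change was lower in non-responders were several chaperones. Of 22 heat shock and chaperone genes 15 rose and 0 fell in responders (median 0.51), against 13 rises and 2 falls in non-responders (median 0.16, but on TPM 0 rose and 5 fell with a median of -0.12, which is 0.12 above all genes), and 4 differed in the test between the groups. Among non-responders the median was 0.11 in the 3-digit mice and 0.38 in the 4-digit mice, with 3 members called as higher in the latter. Hsp90b1, the Hsp90 of the endoplasmic reticulum, stood at 36.4, 43.7 and 64.2 CPM on Day 9 and 31.7, 36.7 and 55.4 CPM on Day 17 in non-responders, lower in 24 of 30. In responders it stood at 31.3, 41.0 and 50.5 CPM and then 33.8, 52.4 and 64.3 CPM, higher in 11 of 14 (0.25, not called, adjusted p = 0.093), and the changes of the groups were -0.44 ± 0.09 apart (adjusted p = 0.0148). Lower changes in non-responders were also called for Pdia3, a disulfide isomerase (difference -0.30), Manf, a secreted stress protein (-0.36), and Dnajb11, a cofactor of BiP (-0.23), of which only Manf was called in responders alone (0.27). Canx was not called in the test of the difference (-0.22, adjusted p = 0.06). Hspd1 and Hspe1, the mitochondrial chaperonins Hsp60 and Hsp10, rose by 0.49 and 0.63 in responders and stood at 0.11 and 0.18 in non-responders (differences of -0.39 and -0.46). Hspe1 was higher on Day 17 in 14 of 14 responders and in 21 of 30 non-responders. Fkbp4, a cochaperone of Hsp90 (-0.48), and Cct3, a subunit of the chaperonin TRiC (-0.33), differed too. The inducible Hsp70 genes Hspa1a and Hspa1b, near copies of each other, were not called in non-responders (-0.31 ± 0.22 and 0.08 ± 0.19). Hsph1, an exchange factor of Hsp70, rose in them by 0.53 ± 0.13, Dnaja1, a cochaperone, by 0.42 ± 0.08, and Cacybp, a binder of S100 proteins, by 0.28 ± 0.05. The 2 that fell were Hspa4, a relative of Hsph1 (-0.07 ± 0.02), and Bag3, a cochaperone of selective autophagy (-0.22 ± 0.08), whose call was lost without any 1 of 8 mice.

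Promoters of the chaperones that differed are shown where they hold a letter match to the element that bears on their family. The heat shock element was searched as GAANNTTCNNGAA and the endoplasmic reticulum stress element as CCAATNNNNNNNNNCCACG, on both strands, in the 250 bases before the start of each gene (RefSeq, GRCm38.p6). The first was found in 153 of 32851 promoters (0.466%) and the second in 37 (0.113%). Among 17 heat shock and chaperone genes with a promoter in the table, Hspd1 and Hspe1 held the heat shock element, in the stretch these divergent neighbors share, and among 15 genes that were lower in non-responders Hsp90b1 held the stress element. The stretches lie at chr1:55088009-55088121 (plus strand of Hspe1) and chr10:86705588-86705694 (minus strand), with the match in capitals, on the other strand for Hspe1 and on the gene's own strand for Hsp90b1.
Hspe1: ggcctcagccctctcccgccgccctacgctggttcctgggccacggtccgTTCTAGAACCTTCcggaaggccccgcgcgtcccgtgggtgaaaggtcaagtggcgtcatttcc
Hsp90b1: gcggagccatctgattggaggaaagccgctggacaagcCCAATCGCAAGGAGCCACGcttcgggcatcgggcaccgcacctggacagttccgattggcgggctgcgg

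The matches begin 89 bases before the start of Hspe1 and 212 bases before that of Hsp90b1. They are descriptions of the letters, and no binding was measured.

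Among the genes whose change was higher in non-responders, a run of apolipoprotein L genes stood out by size. Apol10a (chr15:77477047-77491069, plus strand) stood in responders at 0.875, 3.89 and 10.7 CPM on Day 9 and at 0.314, 1.26 and 3.5 CPM on Day 17, lower in 14 of 14. In non-responders it stood at 0.216, 0.851 and 3.76 CPM and then 0.266, 0.753 and 1.98 CPM, lower in 16 of 30. The responders began higher and came down, and the non-responders kept near their level, with a difference of 1.47 ± 0.27 (adjusted p = 0.00844). Apol11a, Apol11b and Apol10c-ps, its neighbors, with sequences close enough for reads to be shared, differed by 1.36, 1.21 and 1.52. In non-responders these neighbors changed by -0.15, -0.35 and -0.46, and were lower in 17, 20 and 19 of 30 mice. Among non-responders the change of Apol10c-ps was also lower in the 4-digit than in the 3-digit mice (difference -1.15, called). Wwp2, a ubiquitin ligase, had the smallest p: it was lower in 14 of 14 responders (-0.33 ± 0.05) and in 14 of 30 non-responders (0.01 ± 0.03), with a difference of 0.34 ± 0.06 (adjusted p = 0.00435). Cd36, a fatty acid scavenger receptor, and Ctse, a protease of red cell precursors, fell in responders by -0.59 and -0.67 and stood at 0.20 and 0.23 in non-responders. Of 30 genes of red cell maturation 11 fell in responders (median -0.50), and none of 31 was called in the test between the groups (median difference 0.62). The part of red cells in the results for Cd36 and Ctse was not tested. Rpl9-ps6, which has the symbol of a ribosomal pseudogene and is annotated as protein-coding, differed by 0.48. On the other side Galk2, a galactokinase relative, was higher in 14 of 14 responders and in 14 of 30 non-responders (difference -0.38), Lman2l, a cargo receptor, differed by -0.51, Atp2a2, a calcium pump, by -0.25, and Atxn7l3b by -0.24.

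**Figure D5:**
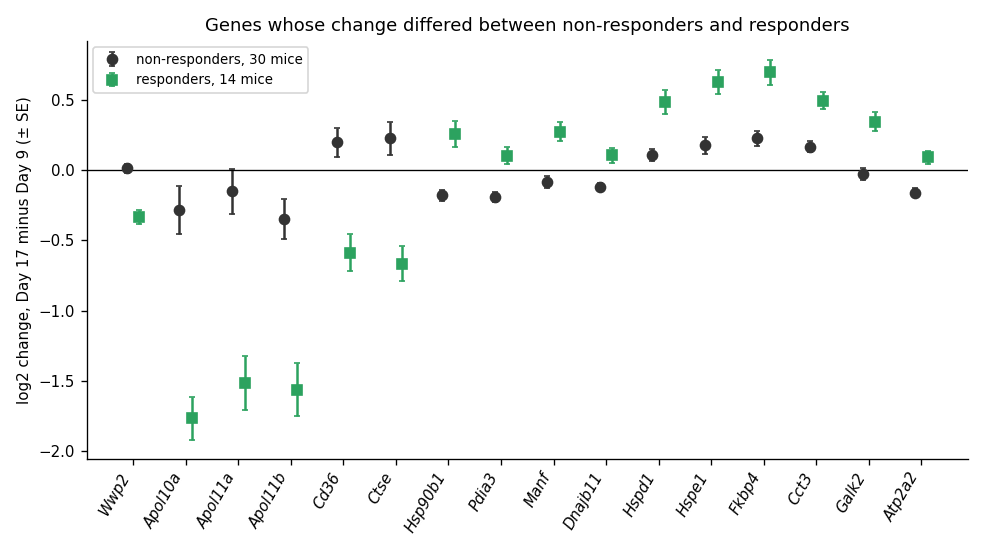
Log2 change from Day 9 to Day 17 (points, with SE bars) of 16 genes whose change differed between the response groups, in 30 non-responders (circles) and 14 responders (squares). The apolipoprotein L genes, Cd36 and Ctse lie lower in responders and the chaperones lie higher, with Hsp90b1 at -0.18 in non-responders and 0.25 in responders. By tag series, which is not drawn, Hsp90b1 stood at -0.25 in 3-digit and 0.02 in 4-digit non-responders.

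The intervals before and after share a set of libraries with this one, so their values are set side by side without a test of likeness. All values in this paragraph are from the fit of all 4 days of the non-responders, so that those of the middle interval differ from the ones above. Day 4 had libraries of 29 non-responders, as non-responder 23 had none on that day. Over all genes 51.7% were called from Day 4 to Day 9 (24.5% rose and 27.2% fell) and 19.1% from Day 17 to Day 24 (8.06% rose and 11.1% fell), and from Day 9 to Day 17 3532 of 13009 genes were. Classical monocyte genes rose from Day 4 to Day 9 in non-responders (24 of 27, median 0.75) and fell both from Day 9 to Day 17 (25 of 27) and from Day 17 to Day 24 (17 of 27, median -0.34). Ccr2 changed by 1.52, -1.01 and -0.14 over the 3 intervals, the last not called. T cell genes fell in the first interval (33 of 35, median -0.47) and rose in the later ones (25 and 12 of 35). Of the platelet genes 24 of 35 fell in the first interval (median -0.35), 15 rose and 1 fell in the second, and 34 fell in the third (median -0.52). Type I interferon genes rose in the first interval (32 of 41), had 1 rise and 7 falls in the second and fell in the third (35 of 41). Ribosomal protein genes fell in the first (68 of 82, median -0.43), with 9 rises and 0 falls in the second and 0 calls in the third. Ighg1 rose by 1.17 and 1.22 in the first and second intervals and stood at 0.18 in the third.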

How the data were processed

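RNA-seq was made from whole blood. The authors deposited estimated counts per gene and TPM computed from them. Their processing notes list STAR and mm10, and the counting tool is not given in the sources used here. Deposited counts (3.14% of values not whole) were rounded, and all 55450 gene identifiers matched GENCODE M21 (GRCm38). Genes passing filterByExpr were tested with edgeR 4.0.16 in R 4.3.3 (TMM, quasi-likelihood test, mouse as block, Benjamini-Hochberg over all genes tested, adjusted p of at most 0.05). CPM are TMM-scaled. For the comparison with responders CPM were scaled over their libraries as well. DESeq2 1.42.0, RLE scaling, other filters, a signed-rank test on the paired differences of TPM and left-out mice were alternatives. Median changes given on TPM are those of log2(TPM + 0.1). Pairing comes from ear tags. Deviations of a mouse's libraries from the day means correlated between -0.27 and 0.48 (median 0.07), and 2 mice correlated best with themselves.

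Members and gene lists were chosen with earlier results of these data known. Genes named were the 8 rises and 8 falls with the smallest p past 1.5-fold, the 8 largest of each, the 2 rises and 2 falls of smallest p per list, 5 per direction in the test against responders, markers named for their level, and, chosen after their values were seen, genes that differed between ear tag series and the other genes named against responders. Immunoglobulin variable segments, mitochondrial genes and unnamed models were left out. A gene that the rule picks is not reported here. Mice were separate animals, so p-values measure the spread between mice.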

Additional observations from a re-analysis of the deposited data

Results flagged for a closer look

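The results in this part stand out because the change from Day 9 to Day 17 differed between groups of mice by a test of the difference itself (edgeR, adjusted p of at most 0.05). All values are differences of log2 changes.

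Between non-responders and responders, the change was lower in non-responders for Lman2l (-0.51), Fkbp4 (-0.48), Hspe1 (-0.46), Hsp90b1 (-0.44), Hspd1 (-0.39), Galk2 (-0.38), Manf (-0.36), Cct3 (-0.33), Pdia3 (-0.30), Atp2a2 (-0.25), Atxn7l3b (-0.24) and Dnajb11 (-0.23). It was higher in non-responders for Apol10c-ps (1.52), Apol10a (1.47), Apol11a (1.36), Apol11b (1.21), Ctse (0.89), Cd36 (0.78), Rpl9-ps6 (0.48) and Wwp2 (0.34). Response and ear tag series partly coincide, and with the tag series by day as a term none of these genes was called (Wwp2 at 0.33 with an adjusted p of 0.06, Hsp90b1 at -0.24 with 0.25, Lman2l at -0.29 with 0.25).

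Between the ear tag series of non-responders, the change was higher in the 7 mice of 4-digit tags for transcripts of macrophages and connective tissue: Spp1 (10.59), Gpnmb (7.62), H19 (7.38), Postn (7.23), Col5a2 (6.81), Col1a1 (4.97) and Acta2 (2.11). The same direction was measured for epithelial and glandular transcripts, Clca3b (6.78), Tmprss11g (6.46), Slc6a14 (6.11), Krt19 (5.57), Ces2f (5.36), Ltf (5.33) and Krt13 (4.56), and for myeloid and stress genes, BC100530 (4.43), Chac1 (3.18), Asprv1 (2.70), Hspa1a (1.54), C3ar1 (1.31), Siglecf (1.15) and Cd274 (0.94). Smaller gaps in this direction were those of Tal1 (0.61), Cd4 (0.41), Lman2l (0.41), Lat (0.37) and Hsp90b1 (0.26). The change was lower in the mice of 4-digit tags for Mcpt8 (-2.13), Apol10c-ps (-1.15), Cd200 (-0.53) and Bank1 (-0.38).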

How the results depend on the processing

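The call of 4592 genes became 889 in the 7 mice of 4-digit tags alone, 417 with a change of at least 1.5-fold and 7315 with a signed-rank test on TPM. Leaving out each mouse in turn gave 4250 to 4806 genes (2038 to 2557 rose and 2027 to 2404 fell). Without the replicate block (the pairing by mouse) 4332 genes were called over non-responders. DESeq2, RLE scaling, the filters, the removal of haemoglobin genes, a fit of all 4 days (3532 genes, 1382 of them rises) and the alternatives added after seeing the data (3801 genes without the 4 mice of highest epithelial sums, 3480 on TPM outside haemoglobin) kept the total within 1.5 times, while rises fell by more in the fit of all 4 days and on TPM. The difference from responders fell from 44 genes to 2 without the pairing block and to 2 with the tag series by day as a term, and came to 89 without the mouse whose Day 17 label differs, so that these genes rest on the fit chosen. The haemoglobin difference was 0.953 points as a share of TPM and 3.52 points without that mouse, higher on Day 17 in each.

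On TPM, where the median gene lay at -0.24, these genes that rose had a negative median change: Atf4 (-0.064), Cacybp (-0.0016), Cct3 (-0.042), Cd200 (-0.18), Cd37 (-0.19), Cd3e (-0.10), Cd4 (-0.029), Cd55 (-0.18), Cd8a (-0.040), Cox6c (-0.033), Cr1l (-0.22), Cxcr3 (-0.10), Cxcr4 (-0.29), Cxcr6 (-0.051), Ddit4 (-0.045), Fkbp4 (-0.15), Gbp8 (-0.013), H2-DMb2 (-0.19), H2-Ob (-0.10), H2-Q6 (-0.21), H2-Q7 (-0.030), Hspe1 (-0.12), Ifit2 (-0.17), Igtp (-0.13), Klf2 (-0.28), Ly6c1 (-0.18), Ly6d (-0.22), Mcm7 (-0.10), Ms4a1 (-0.26), Ndufa1 (-0.072), Nfe2 (-0.091), Pcna (-0.21), Pecam1 (-0.056), Pf4 (-0.14), Rpl10a (-0.14), Rpl9-ps6 (-0.22), Rps7 (-0.13), Sec11c (-0.17), Srsf2 (-0.17) and Srsf6 (-0.15). Outside haemoglobin this held for Cd37 (-0.0036), Cxcr4 (-0.026), Hspe1 (-0.021), Klf2 (-0.039), Ly6d (-0.035), Mcm7 (-0.037) and Rpl9-ps6 (-0.10). In the mice of 4-digit tags alone the opposite sign was measured for Acta2 (0.42), Asprv1 (0.46), BC100530 (1.22), Cd200 (-0.092), Cd274 (0.28), Cd300ld (0.033), Cd55 (-0.060), Chac1 (0.81), Clca3b (1.05), Col1a1 (1.80), Col5a2 (2.93), Cxcr4 (-0.095), Egr1 (0.026), Eomes (0.14), H19 (3.39), H2-DMb2 (-0.065), H2-Ob (-0.042), Hsp90b1 (0.017), Jchain (-0.12), Krt13 (1.13), Krt19 (0.90), Ltf (0.95), Postn (3.38), Prf1 (0.061), Siglecf (0.27), Slc6a14 (1.43), Spp1 (3.94), Tbx21 (0.16) and Tmprss11g (1.72). The cause of these turns was not tested. Counts under 1 CPM, as for Mcpt8 and Pdcd1, limit the precision of single mice.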
